A study of Mus musculus with 24 samples.

Results

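The CELF family comprises the 6 mouse genes Celf1, Celf2, Celf3, Celf4, Celf5 and Celf6, and is described here by the places where their RNAs were listed as STAU2 peaks in embryonic cortex. The members were chosen by gene family name with earlier peak results of these data in view, and their peaks were selected on position: every listed peak on the strand of the gene that shared at least 1 bp with its body. This gave 36 of the 29007 peaks listed in all, 15 in Celf3, 9 in Celf2, 6 in Celf5, 3 in Celf1, 3 in Celf4 and 0 in Celf6. Counts, ranks and places of these peaks are therefore a description and carry no test. STAU2 RIP (RNA immunoprecipitation with an antibody against STAU2) and input lysate RNA were sequenced on 4 days of gestation, E11.5, then E13.5, then E15.5 and last E17.5. Each of the 8 groups had 3 libraries, which makes 24 in all. The labels name no strain, genotype or treatment, and each replicate was made from the cortices of 1 litter joined together. For each day the authors deposited 1 list of peaks per strand that joins the 3 RIP and the 3 input libraries, so no value per library, no spread between replicates and no read depth could be given. The lists give no direction, so a peak may stand for a higher or a lower RIP value relative to input.

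CELF proteins (CUGBP and ELAV-like family) bind RNA through RNA recognition motifs and favour sequences rich in G and U. In the nucleus they steer alternative splicing, and in the cytoplasm they affect the decay and translation of messenger RNAs. Celf1 and Celf2 are made in many tissues, whereas Celf3, Celf4, Celf5 and Celf6 are found mostly in the nervous system, and Celf4 is known for binding messenger RNAs of synaptic proteins in cortical neurons. STAU2 binds double-stranded RNA and helps to carry messenger RNAs in neurons and progenitors. The values below concern the RNAs of the CELF genes, not the proteins.

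The letters of the peaks on which the results below turn are given 5′ to 3′ on the RNA strand, written with T, from the GENCODE vM21 transcripts, with mm10 positions. The first line is the strongest Celf3 peak of E13.5, at chr3:94488226-94488279 on the plus strand, with its longest run of CAG triplets in capitals. The next 3 are coding peaks of Celf3 and 1 of Celf5, in which capitals mark any of 4 GU-rich words: the word TGTTTG, the word TGTGTG, the word TTTGTT or the word GTGTGT. They are shown because 7 of the 15 Celf3 peaks had a coding midpoint, and such words stood in its exon 11 peak, which starts in the bases before that exon that a retained-intron isoform keeps. The next lines are the 2 arms of the longest helix predicted in the strongest peak of Celf2 at E11.5 and of Celf3 at E15.5, in capitals as every base is paired, shown because STAU2 binds double-stranded RNA. The last pair of lines are 30 bases each from the 3' UTR peaks of Celf3 and Celf2 at E17.5 that held GU-rich words, again in capitals.
Celf3 exon 10, E13.5: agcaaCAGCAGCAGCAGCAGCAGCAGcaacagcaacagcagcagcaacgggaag
Celf3 exon 8, E11.5, chr3:94487162-94487257: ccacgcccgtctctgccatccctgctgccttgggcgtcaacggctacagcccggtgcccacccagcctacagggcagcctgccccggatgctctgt
Celf3 exon 7, E15.5, chr3:94486801-94486909: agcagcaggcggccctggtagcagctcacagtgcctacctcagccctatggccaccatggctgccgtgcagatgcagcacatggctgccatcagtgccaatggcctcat
Celf3 exon 11, E15.5, chr3:94488501-94488648: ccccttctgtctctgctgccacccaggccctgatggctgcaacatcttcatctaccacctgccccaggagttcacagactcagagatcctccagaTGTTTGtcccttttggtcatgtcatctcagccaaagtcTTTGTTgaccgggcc
Celf5 exon 6, E15.5, chr10:81468026-81468118: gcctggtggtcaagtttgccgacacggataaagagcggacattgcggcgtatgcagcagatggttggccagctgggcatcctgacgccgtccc
Celf2 3' UTR, E11.5, 5′ arm, chr2:6543361-6543372: ATGATTGGTGTT
Celf2 3' UTR, E11.5, 3′ arm, chr2:6543203-6543214: AATACCAGTTGT
Celf3 3' UTR, E15.5, 5′ arm, chr3:94491392-94491401: GTTCAGGGGC
Celf3 3' UTR, E15.5, 3′ arm, chr3:94491419-94491428: GCTCCTGGAT
Celf3 3' UTR, E17.5, chr3:94491696-94491725: GTGTGTGTGTGggggggggggggcctgagg
Celf2 3' UTR, E17.5, chr2:6540057-6540086: TTTGTTtttcattctgttgtagttcactat

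CELF peaks were listed on all 4 days, with 9 peaks at E11.5 and 5 peaks at E13.5, and with 15 peaks at E15.5 and 7 peaks at E17.5. Peaks fell in the bodies of 4, 3, 4 and 4 of the 6 genes on these days, while 10.4%, 12.6%, 20.8% and 14.3% of the 21951 annotated protein-coding genes had a peak in their body on the same days. Counting only peaks that shared a base with an exon, 3 of 6 genes were listed at E11.5 (Celf1, Celf2 and Celf3), against 9.09% of protein-coding genes. At E13.5 the exonic peaks lay in 3 genes (Celf2, Celf3 and Celf5), against 11.8% of all. Exonic peaks were in 4 genes at E15.5 (Celf1, Celf3, Celf4 and Celf5), against 19.9%, and in 4 genes at E17.5 (Celf2, Celf3, Celf4 and Celf5), against 13.6%. The family was chosen with these peaks known, so its shares are set beside the background and nothing is read from the difference. The day with most CELF peaks, E15.5, also had the longest list, with 10265 peaks, against 6530 peaks at E11.5, 5871 peaks at E13.5 and 6341 peaks at E17.5. With only the first 5871 peaks of each day kept, the family had 8, 5, 10 and 7 peaks from E11.5 to E17.5.

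Peaks were ranked within a day, over both strands, by the p-value of the authors' deposited lists, so that rank 1 is the smallest p, and ranks hold within that day. Of the 36 CELF peaks, 7 stood among the first 10% of their day's list and 23 in the first 50%. Those 7 were 4 of Celf3 and 3 of Celf2, so the other genes had no peak there. A rank by the deposited signal, whose scaling is not stated, gave other places: of the 14 combinations of gene and day with an exonic peak, 10 had a later best rank by signal and 4 an earlier one. The best exonic peak by signal was not always the best by p.

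**Figure D1:**
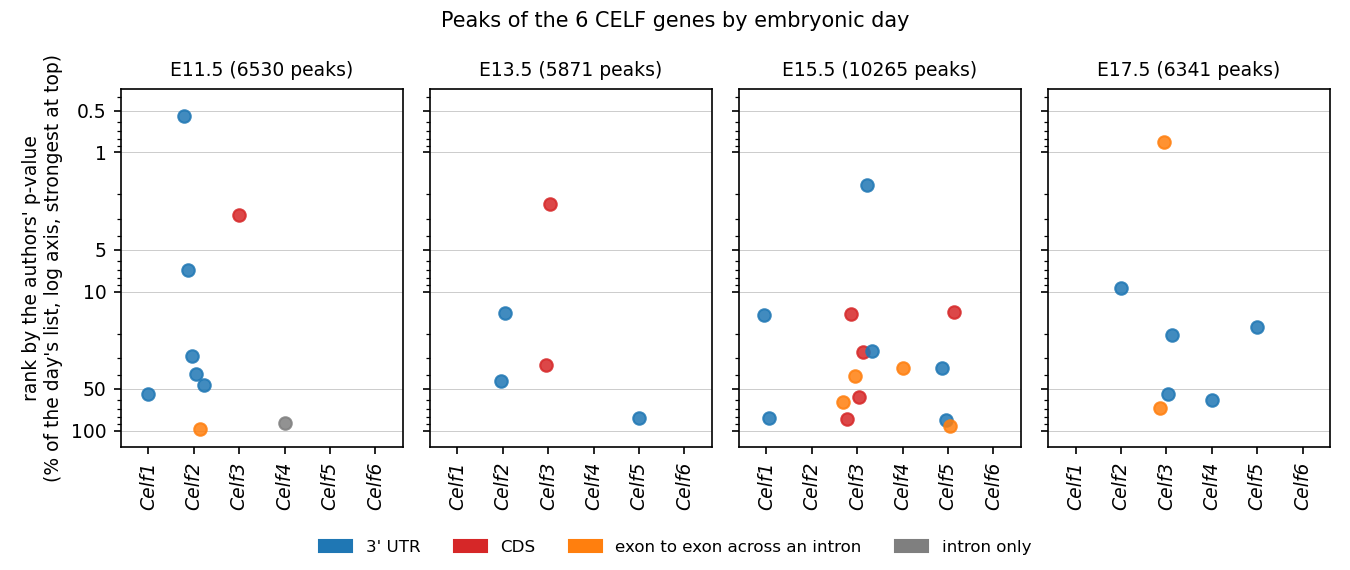
Each point is 1 peak of a CELF gene, with its rank by the authors' p-value on the vertical axis as a percent of the day's list (log axis, strongest at the top), the gene on the horizontal axis and the part of the transcript as colour. Celf3 was listed on all 4 days, its best peak at 2.80%, 2.35%, 1.72% and 0.836% of the list from E11.5 to E17.5, Celf2 had the highest point at E11.5 (0.551%) and none at E15.5, and Celf6 had none.

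Celf3, which in neurons serves as a splicing regulator, was the only member with an exonic peak on all 4 days, which 1.77% of protein-coding genes had. It lies at chr3:94478295-94492198 on the plus strand (ENSMUSG00000028137.9), is 13.9 kb long and has 13 exons in its longest protein-coding isoform, with an mRNA 3' UTR of 1078 bases. Its best rank was 183 at E11.5 and 138 at E13.5, then 177 at E15.5 and 53 at E17.5. These placed it 77th, 71st, 117th and 34th among the 1995, 2582, 4365 and 2975 genes with an exonic peak on those days. By the deposited signal its best ranks over any exonic peak were 5587, 1188, 292 and 819, later than by p on each day. At E15.5 and E17.5 these belonged to other peaks. The peaks with rank 177 and rank 53 by p had signal ranks 3533 and 1317.

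The early Celf3 peaks were short and had coding midpoints. At E11.5 a single peak of 96 bp lay within exon 8, at chr3:94487162-94487257, with a p of 2.24e-05 in the authors' deposited list. At E13.5 the rank 138 peak of 54 bp in exon 10 had a p of 2.55e-05 in the authors' deposited list, and its last base was the last base of that exon. It is the CAG-rich run printed above, with 7 CAG triplets in a row. A run of at least 5 was present in 1 of the 25 CELF peaks whose letters were read and in 10 of 14443 such peaks of all genes (0.0692%), a count made after these letters had been seen. This peak shared at least 1 stretch of 40 bases with transcripts of Kmt2d, Zfhx3 and the gene model Gm25247, and the part of reads from those transcripts in the peak was not tested. The only other Celf3 peak of E13.5, at chr3:94487111-94487159, ranked 1983. It crossed the start of exon 8, which lies at 94487135 in the longest isoform. Only retained-intron isoforms held the whole of this peak.

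At E15.5 Celf3 had 8 peaks, spread from its first exon to its last. Of the 4365 genes with an exonic peak that day, 20 (0.458%) had as many, and the median was 1. The strongest lay in the 3' UTR at chr3:94491331-94491497, 294 bases past the stop codon by its midpoint, with a p of 3.34e-05 in the authors' deposited list. Another 3' UTR peak followed at chr3:94491547-94491633 with rank 2757. Coding peaks lay in exon 5 (rank 8387), exon 7 (rank 1479), exon 11 (rank 5842) and exon 12 (rank 2780). The remaining peaks were wide, with 1103 bp from exon 1 to exon 2 (rank 6418) and 1132 bp from exon 8 to exon 10 (rank 4164). Another gene, Riiad1, lies on the opposite strand over the 5' end of Celf3, and the libraries kept the strand of the RNA, per the labels' protocols.

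At E17.5 Celf3 had 4 peaks. The strongest, at chr3:94487835-94489508, was 1674 bp wide, ran from exon 9 to exon 12 and had a p of 1.50e-05 in the authors' deposited list. A peak of 405 bp at chr3:94486878-94487282 ran from exon 7 to exon 8 with rank 4312. In the 3' UTR, a peak of 346 bp at chr3:94491251-94491596 (rank 3419) covered the whole of the E15.5 peak that was strongest then. The fourth, at chr3:94491686-94491781, had rank 1309 and holds the GU repeat printed above.

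Across days, Celf3 peaks returned to one stretch of the gene but not to one set of bases. Between chr3:94486801 and 94489588, over exons 7 to 12, 9 of its 15 peaks joined into 1 cluster of 2788 bp that held peaks of all 4 days, yet 0 bases were covered on every day. The E11.5 peak in exon 8 lay wholly inside a peak of E15.5 and a peak of E17.5, and the E13.5 peak in exon 10 lay wholly inside the E17.5 peak. In total 12 of the 15 Celf3 peaks (80%) shared a base with a peak of another day, against 29.8% of the 18912 exonic peaks of all protein-coding genes. The 2 shares are of unlike genes. Of the 6618 genes with an exonic peak on any day, 389 had one on all 4 days, as Celf3 did. A gene listed on 1 day only has no exonic peak of its own on another day. The part of days and peak number per gene in this contrast was not tested. Celf3 peaks were also often wide, with 5 of 15 (33.3%) over 300 bp, against 14.5% of all peaks, and the part of width in the shared bases was not tested. Per exon length Celf3 had 2.74 exonic peaks per kb, against 0.900 in Celf5, 0.355 in Celf1, 0.348 in Celf2 and 0.233 in Celf4.

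**Figure D2:**
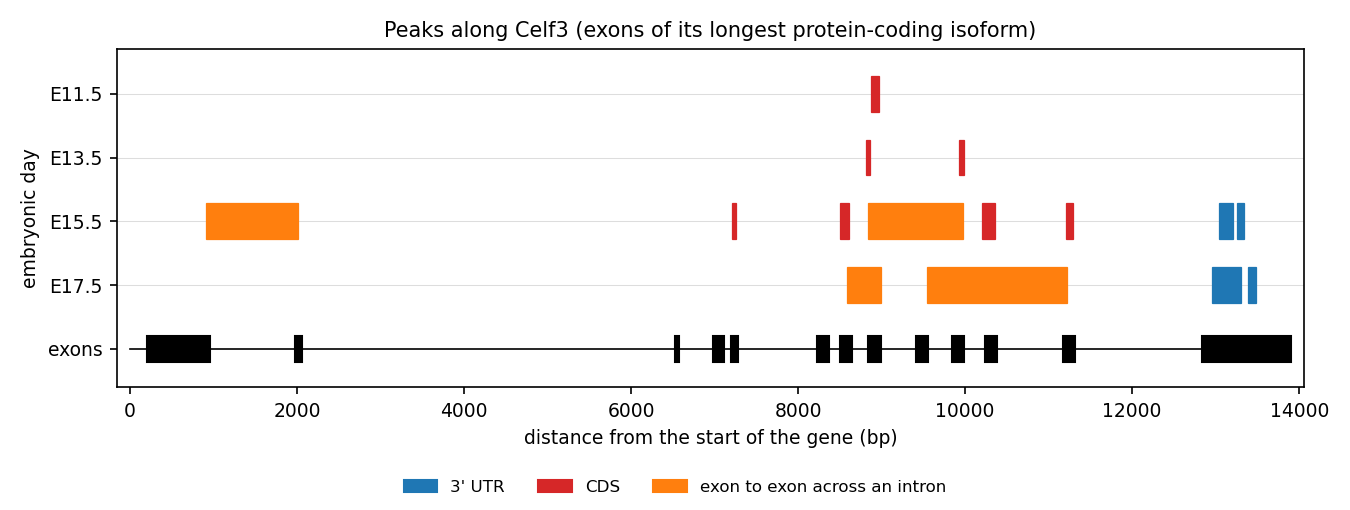
Peaks along Celf3 by embryonic day, drawn to scale against the distance from the start of the gene (bp), with the exons of its longest protein-coding isoform in black in the bottom row. The E11.5 and E13.5 peaks sit over exons 8 and 10, both wide peaks of E17.5 and the 1132 bp peak of E15.5 begin and end in exons of the same stretch, and 3' UTR peaks are drawn at E15.5 and E17.5.

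Celf2, a broadly expressed splicing and stability factor, was the member with the strongest single peak at E11.5. The gene covers 970 kb at chr2:6539694-7509563 on the minus strand (ENSMUSG00000002107.18), and its 9 peaks all lay near its 3' end, in the last exons. Of them, 6 belonged to E11.5, 2 to E13.5 and 1 to E17.5, and 0 to E15.5. As many as 6 exonic peaks were present in 36 of the 1995 genes listed at E11.5 (1.80%). The rank 36 peak of 209 bp, at chr2:6543189-6543397, had a p of 2.94e-06 in the authors' deposited list, and lay 3534 bases past the stop codon in a 3' UTR of 7122 bases.

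The neighbours of that Celf2 peak stretched over the same 3' UTR at E11.5. They lay at chr2:6543451-6544057 (607 bp, rank 454), chr2:6544109-6544260 (rank 1888) and chr2:6545413-6545505 (rank 2571). With the strongest they form a row between 1368 and 3534 bases past the stop codon by their midpoints. A further E11.5 peak at chr2:6553842-6553908 (rank 3070) is coding sequence in the longest isoform and 3' UTR in another isoform, and the last, of 2727 bp, ran from exon 12 to exon 13 with rank 6362. At E13.5 the peak at chr2:6543604-6543679 (rank 838) lay wholly inside the 607 bp peak of E11.5, and the other, at chr2:6542236-6542355, had rank 2578. The E17.5 peak of 217 bp, at chr2:6539884-6540100 with rank 593, lay 6835 bases past the stop codon, in the last part of the 3' UTR and apart from the peaks of the earlier days. By the deposited signal the best ranks of Celf2 over any exonic peak were 753, 145 and 1829 at E11.5, E13.5 and E17.5. The E13.5 value belonged to the rank 2578 peak, and the rank 838 peak had signal rank 615.

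One peak was listed on the strand opposite to a CELF gene, and it lay in this Celf2 stretch. At E11.5 the plus-strand list held a peak of 56 bp at chr2:6543630-6543685 with rank 857 and a p of 0.000176 in the authors' deposited list. It overlapped the minus-strand peaks of E11.5 and E13.5 there. Of the 2902 plus-strand peaks of E11.5 over 1 coding gene, 96.8% lay over a plus-strand gene, and the rest lay opposite to a gene as this one did. The source of this peak was not tested. The other 5 genes had 0 peaks on the opposite strand.

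**Figure D3:**
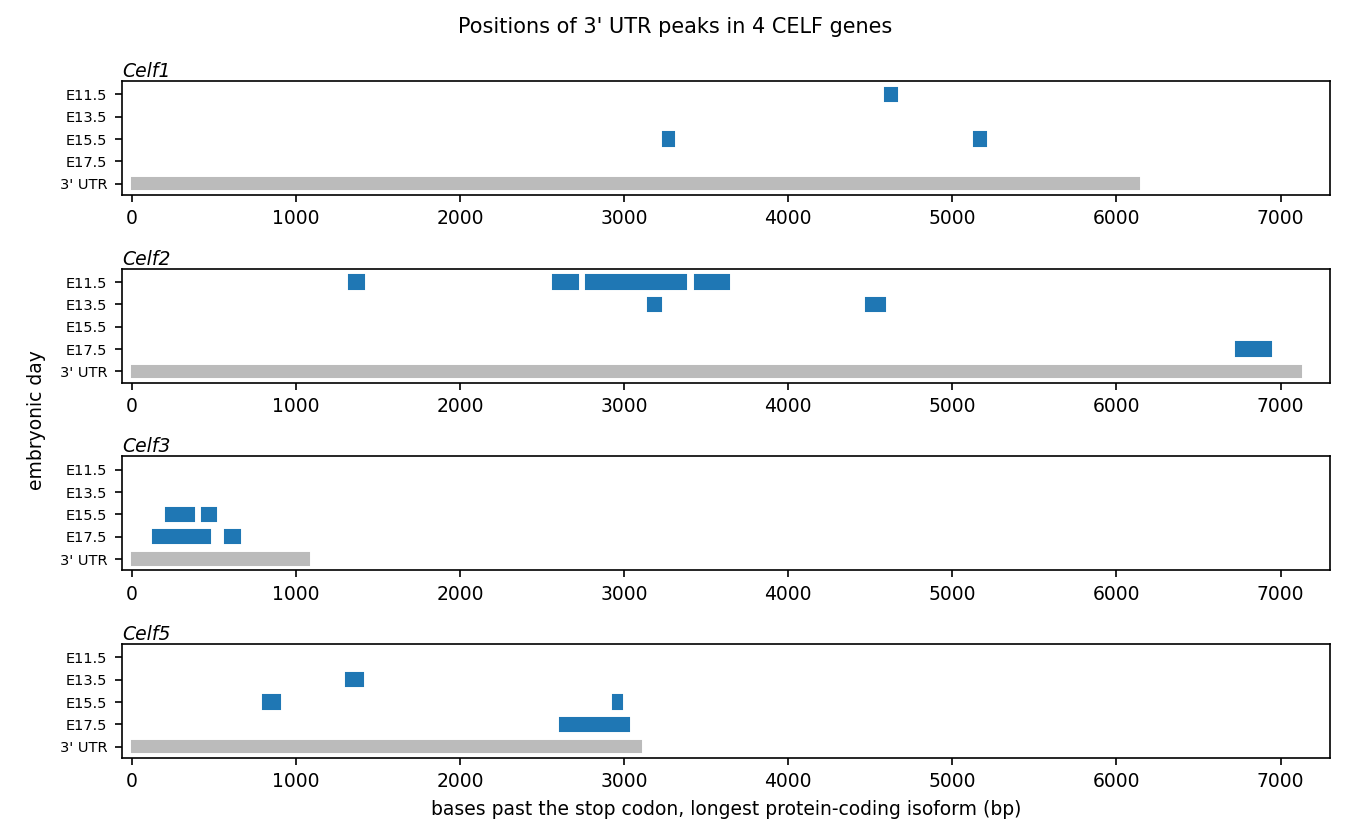
Peaks in the 3' UTRs of Celf1, Celf2, Celf3 and Celf5 by embryonic day, drawn to scale against bases past the stop codon of the longest protein-coding isoform, whose 3' UTR is the grey bar. In Celf2 the E11.5 peaks crowd between 1368 and 3534 bases, the E17.5 peak sits at 6835, and in Celf5 the E15.5 and E17.5 peaks near the end of the 3' UTR overlap.

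Celf1, the founding member and a binder of GU-rich elements in decaying messenger RNAs, had 3 peaks and all lay in its 3' UTR of 6135 bases. At E11.5 the peak at chr2:91017954-91018022 had rank 3550. At E15.5 the peaks were at chr2:91016600-91016665 with rank 1510 and at chr2:91018495-91018570 with rank 8338. They lay 4626, 3270 and 5170 bases past the stop codon, and no pair overlapped. None was listed at E13.5 or E17.5.

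Celf5, a neuronal member, was listed from E13.5 on. Its E13.5 peak lay in the 3' UTR at chr10:81460924-81461024 on the minus strand with rank 4757, in the last part of the list. At E15.5 there were 4 peaks: one in coding exon 6 at chr10:81468026-81468118 (rank 1437), 2 in the 3' UTR (ranks 3613 and 8537), and a peak of 127 bp from exon 7 to exon 8 (rank 9487). As many exonic peaks were present in 362 of the 4365 genes listed that day (8.29%). The E17.5 peak of 422 bp at chr10:81459301-81459722 (rank 1147) covered the whole 52 bp of the rank 3613 peak of E15.5, close to the end of the 3' UTR. The antisense gene Gm16105 overlaps the 3' UTR of Celf5 and shares the bases of the rank 8537 peak.

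Celf4 and Celf6, both neuronal, had 3 and 0 peaks. Celf4 spans 277 kb on chromosome 18 and had 1 peak on each of 3 days, with rank 5773 at E11.5, rank 3610 at E15.5 and rank 3803 at E17.5. The first of them, of 50 bp, lay in an intron and was the only CELF peak that touched no exon. The second covered 3712 bp from exon 8 to exon 9, of which 42 bp were exonic, and the third lay in the 3' UTR. Celf6, at chr9:59577917-59607292 on the plus strand, had 0 peaks on every day, and the nearest peak on its strand lay 15.6 kb outside it. A gene with no listed peak is not shown to lack binding, since the level of its RNA and the depth are unknown, and in bulk tissue fewer cells of a type and less RNA per cell cannot be told apart.

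By the midpoint of the peak, 20 of the 35 exonic CELF peaks lay in a 3' UTR, 8 in coding sequence, 1 in a noncoding exon and 6 in an intron. The 3' UTR share was 57.1% (exact binomial 95% interval 39.4% to 73.7%, which covers counting error only), against 52.4% of the exonic peaks of all protein-coding genes. The interval takes the peaks as independent and may be too narrow. Of the 35 peaks, 15 lay in Celf3, and 16 shared a base with a peak of another day. The split of exonic peaks by member was uneven: 8 of 9 of Celf2 and 3 of 3 of Celf1 had a 3' UTR midpoint, against 4 of 15 of Celf3. Celf5 had 4 of 6 and Celf4 1 of 2. In Celf2, 1 of the 8 is coding sequence in the longest isoform. In that isoform the 3' UTR and coding lengths were 7122 and 1578 bases in Celf2, 6135 and 1539 in Celf1, and 1078 and 1482 in Celf3. The part of these lengths in the split was not tested. The 6 peaks with an intron midpoint that touched an exon all began in one exon and ended in another of the same isoform, with between 1 and 3 introns in between. Among all peaks of protein-coding genes with an intron midpoint and an exonic base, 1811 of 3186 (56.8%) did so. Exonic bases of the longest isoform made up between 1.13% and 37.8% of the width of these CELF peaks, with 109 of 2727 bp in Celf2, 87 of 1103 bp and 341 of 1674 bp in Celf3, and 43 of 127 bp in Celf5. Assigned by their exonic bases, an alternative chosen after seeing the data, 19 exonic CELF peaks were 3' UTR, 16 were coding and 0 lay elsewhere. The deposited signal and width of such a peak count the introns it crosses, and whether spliced reads lie behind it was not tested. Letters of introns outside the annotated transcripts were not analysed here.

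Positions differed from day to day in the family as a whole. Its peaks formed 24 separate positions, and 4 of them were listed on at least 2 days: 2 in Celf3, 1 in Celf2 and 1 in Celf5. Of its 35 exonic peaks, 16 (45.7%) shared a base with a peak of another day, and 12 of those 16 were in Celf3. In Celf1 and Celf4 no exonic peak did. When peaks had to cover at least 50% of each other, 0 positions were shared. The pair nearest to that bound was a Celf3 peak of E15.5 wholly inside a wider one of E17.5, of which it covered 48.3%.

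Sequence was not used to choose the members, and it was read for the 25 CELF peaks of at most 300 bp that lay in 1 exon, beside the 14443 such peaks of all genes. The members fell apart by GC content. All 10 Celf3 peaks lay above the 50% median of all peaks, between 54.0% and 69.8%. In Celf2, 1 of 7 did, and its median was 35.5%. The Celf4 peak had 27.5%, and the medians of Celf1 and Celf5 were 52.2% and 56.05%.

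Predicted folding was strongest in Celf3, given as the minimum free energy per 100 nt of the peak alone, where a lower value means a more stable fold. The median was -28.3 kcal/mol in Celf3, -23.6 in Celf5, -21.7 in Celf2 and -17.7 in Celf1, and -20.1 over all peaks. The median GC content was also highest in Celf3, at 59.0%, and the part of GC content in the energies was not tested. The 3' UTR peak of Celf3 at E17.5 that holds the GU and G runs reached -54.5 kcal/mol per 100 nt, a value that 6 of the 14443 peaks lay below. Its fold is a long hairpin followed by a short one, with 66.7% of the bases paired. The E15.5 3' UTR peaks of Celf3 had -38.7 and -37.6, and the exon 7 peak -37.4. At the other end, the CAG-rich E13.5 peak had -14.8, with no helix of more than 2 bp.

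The strongest CELF peak, that of Celf2 at E11.5, was not extreme in energy at -24.5 kcal/mol per 100 nt. It held the longest unbroken predicted helix of the family, the 12 bp whose arms are printed above, with 146 bases between the arms. A helix as long was predicted in 166 of the 14443 peaks (1.15%), and the median over all was 6 bp. This peak was also long, at 209 bases against a median of 73, and longer sequences leave more room for a helix. The Celf4 3' UTR peak of E17.5 had 11 bp over 193 bases, which 2.42% of peaks reached, and the strongest 3' UTR peak of Celf3 at E15.5 had 10 bp over 167 bases, which 5.18% reached.

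GU-rich words, the kind of sequence that CELF proteins bind, stood in few of these peaks. Searched on the RNA strand only, at least 1 of the 4 words named above was present (those made of GT alone overlap in a repeat) in 5 of 25 CELF peaks (20%), against 13.8% of all peaks. They were 3 peaks of Celf2 and 2 of Celf3. With 50 bases added on either side the counts were 9 of 25 (36%), against 26.9%. The CELF peaks were also longer, with a median of 93 bases against 73 over all, and longer sequences hold more words. Neither the difference in share nor the part of length in it was tested. A match describes letters and not a bound protein.

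**Figure D4:**
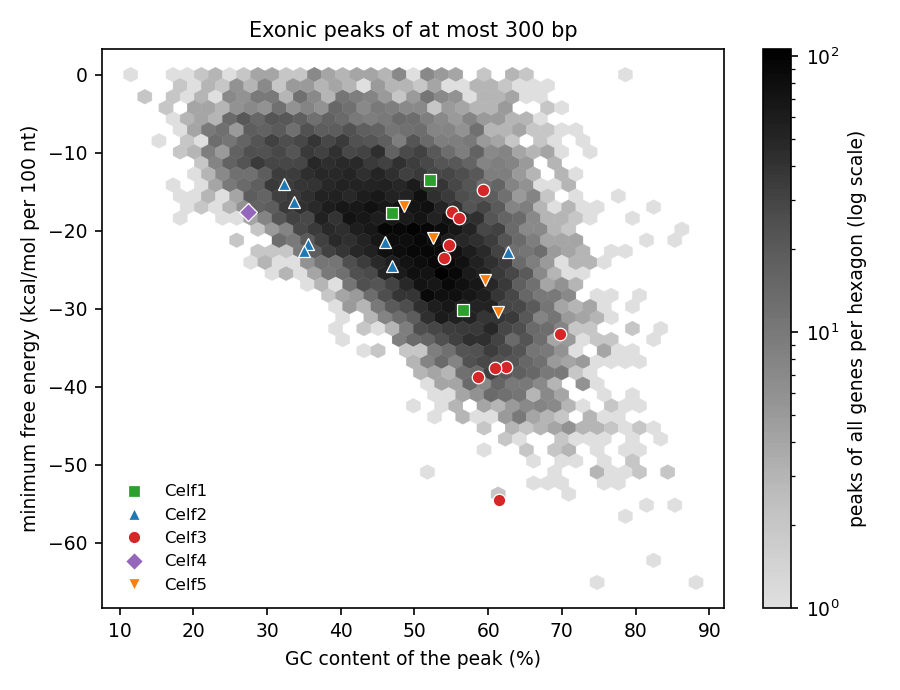
GC content (%) of exonic peaks of at most 300 bp on the horizontal axis and minimum free energy per 100 nt (kcal/mol, lower is more stable) on the vertical axis, with peaks of all genes as grey hexagons on a log count scale and CELF peaks as coloured symbols. Celf3 lies right of the 50% median throughout, 6 of 7 Celf2 peaks lie left of it, and the Celf3 3' UTR peak of E17.5 at -54.5 is the lowest CELF symbol, with 6 peaks of all genes below it.

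Other splicing regulators were listed as well, taken from the Nova, Rbfox, Elavl, Mbnl, Ptbp and Khdrbs families with Srrm4 and Qk. Of 20 such genes, 9 had an exonic peak at E11.5 and 8 had one at E13.5, 13 had one at E15.5 and 7 had one at E17.5, and 17 had one on any day, while 5 of the 6 CELF genes and 30.1% of protein-coding genes had one on any day. The 4 with the best mean percentile were Nova2, Rbfox2, Nova1 and Rbfox3, which encode splicing factors. Nova2 was the only one of them listed on all 4 days. Its best ranks by p were 1133, 889, 248 and 210 from E11.5 to E17.5, each behind that of Celf3 by p. Ranks by the deposited signal were not compared for these genes. By p, Nova1 had rank 170 at E11.5 and Rbfox2 had rank 151 at E15.5, both ahead of Celf3 on those days. Per kb of exon the CELF genes had 0.597 exonic peaks, against 1.21 in the Nova and Rbfox genes and 0.678 in the Elavl genes.

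Genes with a similar course of ranks were sought for the 3 members with exonic peaks on at least 3 days, by the summed difference in percentile over the 4 days among 6617 other genes. Nearest to Celf3 were the kinase gene Gsk3a (distance 29.1), the microRNA processing gene Dgcr8 (29.4) and the spliceosome gene Srrm2 (31.4). Nearest to Celf2 were the histone ubiquitin ligase gene Rnf20 (24.7), the tubulin gene Tubb2b (41.0) and the phosphatase gene Ppp1ca (46.8), all without an exonic peak at E15.5. Nearest to Celf5 were the nuclear transport gene Ranbp1 (11.3), the neuronal membrane protein gene Sez6 (16.1) and the kinase inhibitor gene Pebp1 (17.6), all without an exonic peak at E11.5. The distances are a likeness of ranks and describe the lists only.

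Markers of cortex and of other cells were looked up in the same lists, as a check of the tissue by peaks, which are not levels of expression. Of 15 markers of cortical progenitors and neurons, 5, 8, 10 and 3 had an exonic peak from E11.5 to E17.5. Of all protein-coding genes, 9.09%, 11.8%, 19.9% and 13.6% had one on those days. Of 8 vessel and meninges markers, 1, 5, 2 and 0 had one, of 3 blood markers 1 at E11.5 and 0 later, of 4 microglia markers 0, 1, 1 and 0, and of 6 ganglionic eminence and interneuron markers 1, 0, 1 and 2. The share of these cells in the libraries, and its part in the CELF peaks, was not tested.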

How the data were processed

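Per the labels, STAU2 RIP and input RNA of embryonic cortex were sequenced in 24 libraries, made with a strand-keeping kit. Per the submitters' processing notes, the build was mm10, and the tools were Cufflinks 2.2.1, bedtools 2.17.0, TopHat and TopHat2 2.0.9. Which peak caller, test and scaling were used is not given in the sources used here. The authors deposited 8 peak lists, 1 per day and strand, with a signal, a p-value and a q-value per peak. All q-values lay below 0.01. Depth is unknown.

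Genes were those of GENCODE vM21. Peaks were ranked by the deposited p-value within a day and assigned by at least 1 bp of same-strand overlap. Letters came from GENCODE transcripts, whose lengths matched the annotation in all 101652 transcripts compared, and were folded with ViennaRNA 2.7.2 for peaks of at most 300 bp inside 1 exon. Python 3.11.15 ran every step, and gene assignment, mapping and folding were tested on simulated data. The lists hold no value per library, so no test was run.

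The members and gene lists were chosen with earlier results of these data known. All 6 members are named. For each member with exonic peaks on at least 3 days, the 3 genes with the smallest summed percentile difference are named. Of 20 other splicing regulators, the 4 with the best mean percentile are named. The cell type markers form 5 lists. Alternatives covered the overlap, the list threshold, list length, isoforms, shared positions and flanks.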

Additional observations from a re-analysis of the deposited data

How the results depend on the processing

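Of 48 alternative values for the counts and shares, 44 stayed within 1.5 times the reported count or within the interval of the share. The other 4 did not. Some of the 44 could not have moved. Leaving out peaks over 5000 bp could change no count, since the widest CELF peak was 3712 bp. Equal list lengths could not change E13.5, whose own list held the 5871 peaks kept. The interval of the share came from the same peaks and was wide, from 39.4% to 73.7%. With the stronger 50% of the peaks of each day, the family had 9 peaks at E15.5 in place of 15 and 4 at E17.5 in place of 7. With reciprocal overlap of at least 50%, the positions listed on 2 or more days numbered 0 in place of 4. In the pair nearest to that bound, a Celf3 peak of E15.5 lay wholly inside a wider one of E17.5 and covered 48.3% of it. The part of peak width in this count was not tested. With 50 bases added on either side, 9 peaks in place of 5 held a GU-rich word, as longer sequences hold more words. The 3' UTR share was between 54.3% and 60.9% in its alternatives. Restricting the words to exonic peaks changed nothing by construction, since letters were read in exons only. Of 14 best ranks, 11 moved by over 1.5 times when ranked by the deposited signal, and the cause was not tested. The best rank by signal was taken over all exonic peaks of the gene, so it may belong to another peak. Leaving out each replicate was not run, since the lists hold no values per replicate. No paired analysis was possible because the lists join the libraries of a day. Depth and the spread between replicates are unknown, so no interval could be set on a peak's presence.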
